A study of Homo sapiens with 24 samples.

Results

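This is the difference in plasma response between the cell lines A375 and Fadu: for each gene, the log2 fold change of plasma-treated against untreated A375 minus the log2 fold change of plasma-treated against untreated Fadu. A value above 0 means a higher response in A375, which can be a larger rise, a smaller fall or a rise against a fall. It was fitted from 12 of the 24 RNA-seq libraries of the series, with 3 libraries in each of 4 groups, for 16627 of 61533 annotated genes. The groups were untreated A375 (0 s of plasma), A375 given 60 s of plasma, untreated Fadu (0 s) and Fadu given 60 s. A375 is a melanoma line with mutant BRAF, and Fadu is a squamous carcinoma line of the hypopharynx. The labels name both as wild type and give both the same broad description, head and neck cancer cells. Plasma came from a Piezo-CAP source, which drives a cold atmospheric plasma by a piezoelectric transformer. Cells were in 6-well plates, and the time given for every group, the untreated ones included, was 24 h. A375 grew in DMEM and Fadu in MEM, each with 10% serum, and each tumour type was 1 line, so line, tumour type and medium cannot be told apart. Nothing in the labels ties the 3 libraries of a group to separate cultures. The p-values therefore reflect only how far these libraries varied, which may be technical.

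Cold plasma delivers short-lived radicals and longer-lived oxidants such as hydrogen peroxide, nitrite and nitrate to cells through the medium. Cells meet oxidants with the NRF2 programme of glutathione and thioredoxin genes, damaged proteins with heat shock chaperones under HSF1, misfolded proteins of the endoplasmic reticulum with chaperones under ATF6 and XBP1, and amino acid or translation stress with ATF4 and its target CHOP. Glucose and its phosphates act through the factors MondoA and ChREBP on TXNIP, and growth factor signals act through RAS and ERK on genes that feed back on the same pathway. These programmes are used below as named gene lists, and "higher" or "lower in A375" refers there to the response, not to the level.

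The upstream sequences of 6 genes on which the results turn are printed first. They were picked because each holds a match to the element through which its programme is known to act, which many members of the same lists lack. No gene of the ATF4 and CHOP list is printed, though 4 of its 11 tested genes hold the matching element. Each is the 250 bases before the RefSeq transcription start on GRCh38.p14, 5′ to 3′ on the gene's own strand, with the matched letters in capitals.
TXNIP: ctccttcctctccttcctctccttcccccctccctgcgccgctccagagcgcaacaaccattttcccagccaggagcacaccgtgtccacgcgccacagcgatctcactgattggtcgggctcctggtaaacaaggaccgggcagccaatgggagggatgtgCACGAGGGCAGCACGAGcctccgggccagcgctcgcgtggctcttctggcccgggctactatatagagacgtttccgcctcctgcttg
HSPA5: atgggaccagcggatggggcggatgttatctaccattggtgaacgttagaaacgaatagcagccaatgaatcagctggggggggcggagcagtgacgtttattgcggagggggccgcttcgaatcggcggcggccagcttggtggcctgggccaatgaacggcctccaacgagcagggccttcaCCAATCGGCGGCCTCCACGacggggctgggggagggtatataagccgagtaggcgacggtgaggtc
CALR: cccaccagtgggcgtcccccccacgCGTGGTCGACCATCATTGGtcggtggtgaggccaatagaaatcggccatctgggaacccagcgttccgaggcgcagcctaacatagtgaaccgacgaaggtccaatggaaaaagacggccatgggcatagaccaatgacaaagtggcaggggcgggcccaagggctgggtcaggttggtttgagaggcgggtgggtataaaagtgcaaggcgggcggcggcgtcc
DNAJB1: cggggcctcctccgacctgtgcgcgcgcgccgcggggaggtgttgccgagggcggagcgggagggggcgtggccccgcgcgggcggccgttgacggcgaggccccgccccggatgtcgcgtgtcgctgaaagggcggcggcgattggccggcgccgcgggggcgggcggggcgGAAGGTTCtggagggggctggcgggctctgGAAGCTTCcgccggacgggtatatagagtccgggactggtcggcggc
TXNRD1: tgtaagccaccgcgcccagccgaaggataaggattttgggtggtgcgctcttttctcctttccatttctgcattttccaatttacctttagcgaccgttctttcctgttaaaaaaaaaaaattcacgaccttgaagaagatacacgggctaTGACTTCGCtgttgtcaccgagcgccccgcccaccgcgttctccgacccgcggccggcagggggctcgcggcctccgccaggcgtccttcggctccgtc
OAS3: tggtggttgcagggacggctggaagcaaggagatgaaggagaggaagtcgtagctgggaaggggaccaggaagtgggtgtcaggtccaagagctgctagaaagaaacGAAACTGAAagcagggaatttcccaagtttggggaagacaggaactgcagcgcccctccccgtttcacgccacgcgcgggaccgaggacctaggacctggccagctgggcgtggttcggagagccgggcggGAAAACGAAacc
The TXNIP window (chr1:145996580-145996829, minus strand, 1 of its 2 RefSeq starts) holds a carbohydrate response element, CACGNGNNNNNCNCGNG, beginning 88 bases before the start. Those letters stand in 0.424% of the 35116 RefSeq promoters of the same length. TXNIP is their only holder among the 7 tested alpha-arrestins and glucose-sensing genes. The HSPA5 window (chr9:125241344-125241593, minus strand) and the CALR window (chr19:12938359-12938608, plus strand) hold the endoplasmic reticulum stress element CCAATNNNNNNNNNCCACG, 66 and 225 bases before the start. This element includes a CCAAT box and stands in 0.074% of promoters. The DNAJB1 window (chr19:14518398-14518647, minus strand, 1 of 3 starts) holds 2 heat shock elements, GAANNTTC, the first of them 77 bases before the start, against 5.78% of promoters with at least 1. The TXNRD1 window (chr12:104215529-104215778, plus strand, 1 of 2 starts) holds an antioxidant response element, TGACNNNGC, 99 bases before the start, against 10.9% of promoters. The OAS3 window (chr12:112938224-112938473, plus strand) holds 2 cores of the interferon response element, GAAANNGAA, the first 143 bases before the start, against 6.88% of promoters. Both strands were searched, and a match describes letters, not a bound factor.

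The libraries held 29022681 to 49514338 counts each. Of 12 squamous epithelium markers, all 12 reached 10 counts-per-million (CPM) in untreated Fadu and 1 did in untreated A375. Of 10 melanocyte markers, 6 reached 10 CPM in untreated A375, among them SOX10, and 1 did in Fadu, while the pigment genes PMEL and MLANA were at 1.203 and 0.961 CPM in untreated A375, below their 5.17 and 2.94 CPM in untreated Fadu. The 18 leukocyte markers had median levels of 0.0676 CPM in untreated A375 and 0.0449 CPM in untreated Fadu. The summed level of the squamous markers in Fadu was 7279 to 7514 CPM untreated and 3790 to 4110 CPM after plasma, and that of the melanocyte markers in A375 was 1442 to 1481 and 1240 to 1283 CPM. KRT5 alone went from 4208 to 1320 CPM there, and KRT6A, SFN, S100A2 and EPCAM were higher after plasma, S100A2 at 314 and 645 CPM. These levels changed in the same Fadu libraries as the results below, and their part in them was not tested. In bulk RNA, fewer cells of one kind and less RNA per cell cannot be told apart.

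About as many genes passed the test for a response difference between the lines as did not, and not passing does not show an equal response. Of the 16627 genes tested, 8797 (52.9%) had a response difference at an adjusted p under 0.05, by the quasi-likelihood test of edgeR, with p-values adjusted by Benjamini and Hochberg's method over all genes tested, which is what "passed" means throughout. The response was higher in A375 for 4488 genes (27%) and lower for 4309 (25.9%). The typical size was modest: the median absolute difference among the genes that passed was 0.56 on the log2 scale, and 2003 genes differed by at least 1, of which 606 lay above 0 and 1397 below. Large differences were more often a lower response in A375. Within the lines, 26.4% of genes rose and 26.9% fell in A375, and 28.1% rose and 28.2% fell in Fadu. All list counts given below are to be read beside these shares over all genes. Across the genes, the 2 lines' fold changes had a Pearson r of 0.11 and a Spearman rho of 0.13, which describe genes and not independent replicates.

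Many of these differences were changes of sign. Of 5672 genes that passed in both lines, 3392 moved the same way and 2280 (40.2%) moved opposite ways. These 2280 genes were 13.7% of all genes tested. In 1268 of them (7.63%) RNA rose in A375 and fell in Fadu, and in 1012 (6.09%) it fell in A375 and rose in Fadu. Both moves reached 0.5 on the log2 scale in 377 genes, 96 in the first direction and 281 in the second. Of the other genes with a response difference, 2094 passed in A375 alone, 2695 in Fadu alone, 564 moved the same way with the larger change in A375, 958 moved the same way with the larger change in Fadu, and 206 passed in neither line by itself.

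**Figure D1:**
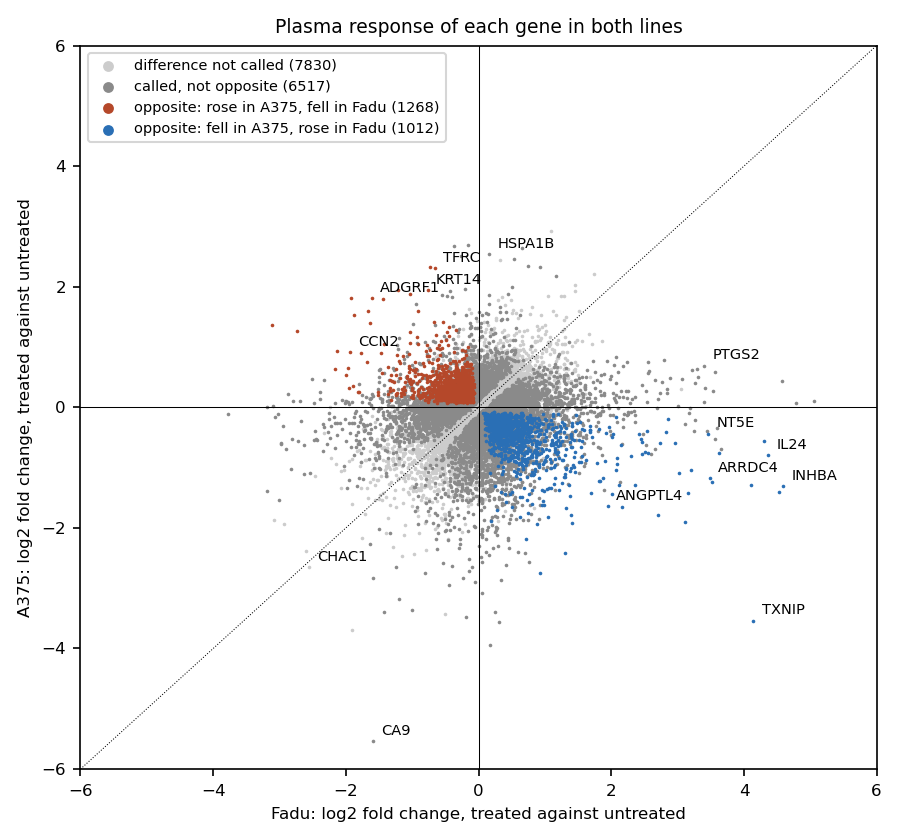
Log2 fold change (treated against untreated) of each tested gene in Fadu (x axis) and A375 (y axis), 1 point per gene, with genes on the dotted line responding equally; 2 genes lie outside the axes, which end at 6. The 1012 genes in blue fell in A375 and rose in Fadu and reach farther from the origin than the 1268 in red, with TXNIP at the lower right.

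These counts depend on how libraries were put on a common scale. The main scaling (TMM) placed the median difference of all genes at -0.03, and scaling to library size alone placed it at -0.17, a shift toward Fadu. The share of passing genes that lay above 0 was 51.0% in the main analysis, 35.4% with library size alone, 40.8% on log2(TPM + 1) and 54.0% in DESeq2. The gene lists given below with a direction kept the sign of their median difference under library size scaling, log2(TPM + 1) and DESeq2's size factors, under removal of a trend with gene length and with each library left out in turn. Their size moved with the scaling. With library size alone the list medians shifted down together with the median over all genes, the endoplasmic reticulum chaperones from 0.94 to 0.79. Relative to the median over all genes, proteasome subunits stood at 0.28 and mitotic genes at 0.43 under both scalings. Not taken relative to it, the median fell from 0.25 to 0.11 for proteasome subunits and from 0.15 to 0.01 for HIF targets and glycolysis. The median fell from 0.20 to 0.06 for double-strand break and crosslink repair and from 0.26 to 0.12 for BCL2 family, caspase and death receptor genes. It fell from 0.30 to 0.15 for EGFR ligands and receptors, from 0.36 to 0.22 for antioxidant enzymes, from 0.40 to 0.26 for mitotic genes and from 0.42 to 0.28 for DNA replication genes. It went from -0.18 to -0.33 for cytosolic ribosomal proteins and from -0.27 to -0.42 for cytosolic aminoacyl-tRNA synthetases. On log2(TPM + 1) it fell from 0.44 to 0.27 for immediate early genes. The median difference over all genes was also lower for short genes, from -0.19 in the shortest of 5 equal groups of genes to 0.06 in the longest.

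The gene that differed most was TXNIP, the thioredoxin-interacting alpha-arrestin that restrains glucose uptake (chr1:145992435-145996600, minus strand). Its level was 196, 199.5 and 215 CPM in untreated A375 and 17.01, 19.9 and 15.7 CPM after plasma. In Fadu the levels were 17.9, 16.1 and 16.8 CPM untreated and 282, 310.4 and 304 CPM after plasma. Untreated A375 and treated Fadu were thus high, treated A375 and untreated Fadu low, and no library of either line overlapped between its groups. Such absence of overlap was common, at 60.5% of all genes tested in A375 and 61.1% in Fadu. The log2 fold change was -3.54 ± 0.06 (SE, 3 libraries per group) in A375 and 4.14 ± 0.06 in Fadu, a difference of -7.68 ± 0.09 (adjusted p = 3.99e-30). ARRDC4, a related alpha-arrestin under the same glucose-sensing factors, moved the same 2 ways. It stood at 18.6, 17.3 and 20.4 CPM in untreated and 8.28, 8.09 and 8.47 CPM in treated A375, and at 4.84, 6.098 and 5.62 CPM in untreated and 59.5, 63.7 and 62.6 CPM in treated Fadu, a difference of -4.66 ± 0.12. ARRDC3, another alpha-arrestin, fell in both lines, -1.43 ± 0.05 in A375 and -0.63 ± 0.06 in Fadu (difference -0.80 ± 0.08). Of the 7 tested alpha-arrestins and glucose-sensing genes, 5 were lower in A375, 0 were higher and 3 moved opposite ways. Their median difference was -0.80 ± 0.14 (spread of the list median between libraries, combined over the 4 groups) beside -0.03 over all genes.

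INHBA, IL24 and NT5E, among the largest opposite responses, were higher in untreated A375 than in untreated Fadu. INHBA, the activin A subunit, was at 996, 996 and 1010.4 CPM in untreated A375 and 349, 446 and 417 CPM after plasma. Its level in Fadu was 0.956, 0.712 and 1.28 CPM untreated and 22.1, 23.5 and 24.4 CPM after plasma. The groups of each line did not overlap, yet treated Fadu stayed far below treated A375. The difference in response was -5.90 ± 0.22 (adjusted p = 6.78e-09). FST, the activin antagonist follistatin, rose in both lines, by 0.27 ± 0.04 in A375 and 2.26 ± 0.05 in Fadu. IL24, a cytokine of the interleukin-10 family first found in melanoma cells, was at 149.8, 133 and 141 CPM in untreated and 73.3, 89.02 and 82.1 CPM in treated A375. In Fadu it was at 0.382, 0.37 and 0.624 CPM untreated and at 9.05, 9.56 and 9.501 CPM after plasma, a difference of -5.16 ± 0.17.

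NT5E encodes CD73, the surface enzyme that makes adenosine from AMP. It was at 144, 137 and 135 CPM in untreated and 92.2, 112 and 103 CPM in treated A375, against 5.48, 5.899 and 4.86 CPM in untreated and 55.5, 63.3 and 60.7 CPM in treated Fadu. The fall in A375 was small (-0.44 ± 0.05) and the rise in Fadu large (3.46 ± 0.08), and both lines' groups stood apart. ANGPTL4, a secreted inhibitor of lipoprotein lipase, moved the same way with changes of like size, -1.64 ± 0.09 in A375 and 1.95 ± 0.09 in Fadu. MIR100HG, the host transcript of the microRNAs miR-100 and let-7a-2, and SPRED3, an inhibitor of RAS signalling, completed the 8 genes with the largest differences in this direction among those without overlap (-3.42 ± 0.14 and -3.33 ± 0.18). MIR100HG overlaps other transcripts, and the sources used here do not state whether counting used strand, so its counts are uncertain.

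**Figure D2:**
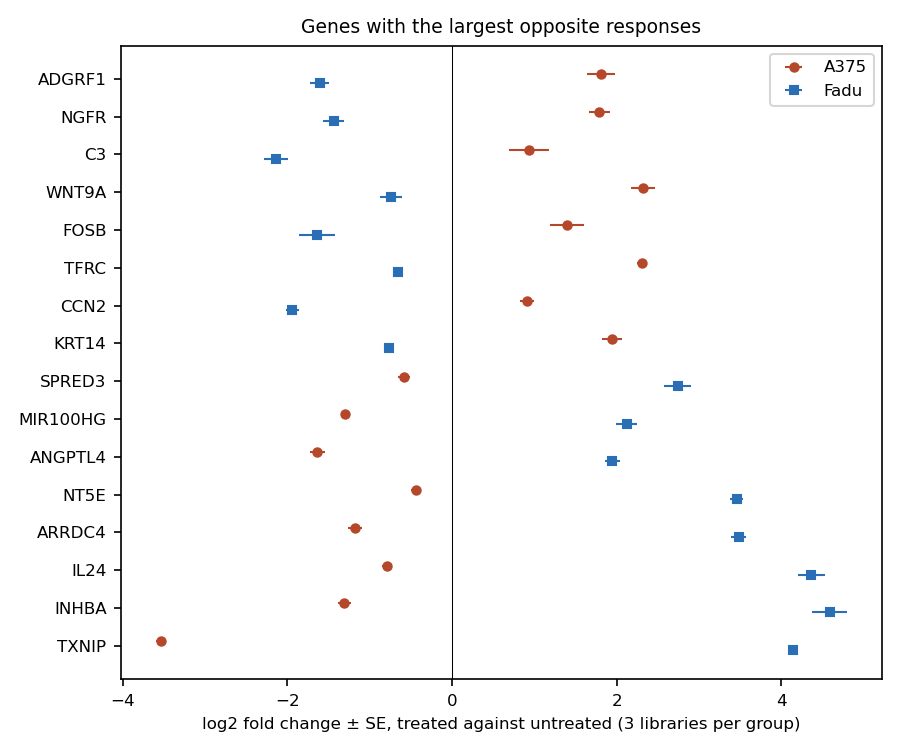
Log2 fold change ± SE (x axis) in A375 (red circles) and Fadu (blue squares) for the 8 genes of each direction with the largest opposite responses. They were taken from genes of at least 5 CPM in the higher group of each line and no overlap between groups (3 libraries per group). The lower group can be near the floor, as for IL24 and INHBA in untreated Fadu (0.459 and 0.984 CPM). TXNIP has the widest gap, -3.54 in A375 against 4.14 in Fadu.

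Genes that report ERK pathway output rose in Fadu and were mixed in A375. Of 19 such genes, 17 rose, 1 fell and 1 did not pass in Fadu, and 8 rose, 8 fell and 3 did not pass in A375. The response was lower in A375 for 15 of 19, higher for 2, and opposite for 7, beside 25.9% of all genes lower in A375. The median difference was -0.76 ± 0.12, from medians of 0.03 in A375 and 0.80 in Fadu. SPRY2, a feedback inhibitor of receptor tyrosine kinase signalling, was at 392, 384 and 383 CPM in untreated and 285, 289 and 301 CPM in treated A375, and at 6.28, 5.98 and 5.24 CPM in untreated and 19.2, 18.1 and 19.2 CPM in treated Fadu. Even after its rise every Fadu library stayed far below every A375 library. SPRY4, its close relative, had the lowest difference of the list, -3.23 ± 0.15. PHLDA1 fell in A375 and rose in Fadu (-0.50 ± 0.03 and 1.39 ± 0.04), while DUSP6, the cytosolic ERK phosphatase, and ETV4, an ETS factor, rose in Fadu (1.75 ± 0.06 and 1.48 ± 0.05) and did not pass in A375 (0.08 ± 0.05 and -0.03 ± 0.04). EGR1, an early target of the pathway, went against the list: it fell in both lines, more in A375 (difference -0.36 ± 0.07). TGFA, a ligand of the EGF receptor, fell in A375 and rose in Fadu (-0.28 ± 0.03 and 1.29 ± 0.04). The wider list of EGF receptor ligands and receptors did not follow it: 7 of 11 were higher in A375 and 2 lower, with a median of 0.30. CCND1, the cyclin D1 gene and a distant target of ERK signalling, rose in both lines (0.30 ± 0.03 and 0.42 ± 0.03), and its small difference, -0.12 ± 0.04, lost its call under 7 alternatives.

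Matrix and epithelial-mesenchymal genes leaned the same way. Of 36 tested, 25 were lower in A375, 8 higher and 3 did not pass, with a median difference of -0.60 ± 0.08. In Fadu 22 rose and 7 fell, and in A375 12 rose and 13 fell. TNC, the matrix glycoprotein tenascin C, was at 1968, 1994 and 1988 CPM in untreated and 1465, 1529.5 and 1448 CPM in treated A375, and at 7.33, 6.81 and 5.898 CPM in untreated and 26.2, 24.7 and 24.9 CPM in treated Fadu. It remained an A375 gene by level, with opposite changes in the lines. HMGA2, a chromatin protein of mesenchymal tumours, rose in both lines, by 0.27 ± 0.04 in A375 and 2.22 ± 0.05 in Fadu. Other inducible genes that rose far more in Fadu included PTGS2, the prostaglandin synthase COX-2, which went from 14.2, 12.7 and 10.1 to 122, 136 and 135 CPM in Fadu and from 5.397, 6.15 and 5.200 to 8.83, 9.72 and 8.45 CPM in A375 (difference -2.71 ± 0.13). CXCL8, the neutrophil chemokine interleukin-8, fell in A375 (-0.19 ± 0.05) and rose in Fadu (0.79 ± 0.04).

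The reverse pattern, a rise in A375 and a fall in Fadu, included TFRC, CCN2 and NGFR. TFRC, the transferrin receptor, was at 75.5, 73.8 and 68.6 CPM in untreated and 388, 334 and 358 CPM in treated A375. In Fadu it was at 618, 625 and 625 CPM untreated and 406, 412 and 365 CPM after plasma. The lines were far apart before treatment and overlapped after it, with a difference in response of 2.96 ± 0.07 (adjusted p = 3.54e-17). CCN2, the matricellular protein CTGF and a target of YAP, rose from 10.05, 9.901 and 7.83 to 19.3, 15.9 and 17.8 CPM in A375 and fell from 65.1, 67.4 and 67.5 to 18.3, 16.7 and 17.2 CPM in Fadu, also ending at like levels. The list of YAP and TEAD targets did not share this direction, with 7 of 21 higher in A375 and 9 lower, beside 27% and 25.9% of all genes. NGFR, the low-affinity neurotrophin receptor and a neural crest marker, rose from 5.05, 5.25 and 4.04 to 20.95, 14.2 and 15.01 CPM in A375 and fell from 20.7, 17.5 and 17.3 to 7.23, 6.86 and 6.44 CPM in Fadu.

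ADGRF1, an adhesion G protein-coupled receptor, had the largest difference in this direction, 3.41 ± 0.20, from levels of 2.66, 2.59 and 2.05 CPM in untreated and 11.4, 7.01 and 7.84 CPM in treated A375 and of 66.2, 68.6 and 74.6 CPM in untreated and 24.2, 24.2 and 20.3 CPM in treated Fadu. WNT9A, a Wnt ligand, rose in A375 by 2.32 ± 0.15 and fell in Fadu (-0.74 ± 0.13). C3, complement component 3, was mainly a Fadu gene and fell there from 184, 185 and 187 to 49.95, 37.8 and 38.6 CPM, while A375 read 4.81, 4.34 and 4.65 CPM untreated and 10.8, 10.2 and 6.18 CPM after plasma, with 1 treated library nearer the untreated ones. FOSB, an AP-1 subunit, rose from 26.02, 27.6 and 14.9 to 52.9, 63.2 and 65.99 CPM in A375 and fell from 58.5, 57.1 and 58.4 to 20.6, 15.3 and 20.1 CPM in Fadu. FOS, another AP-1 subunit of the same family, fell in Fadu (-1.09 ± 0.21) and did not pass in A375 (0.51 ± 0.23). Of 27 immediate early and AP-1 genes, 15 were higher in A375 and 5 lower, with a median of 0.44 ± 0.21. KRT14, a basal keratin, rose from 1.19, 1.75 and 1.44 to 5.89, 5.93 and 4.73 CPM in A375 and fell from 471, 461 and 447 to 284, 258 and 269 CPM in Fadu, and its counts could be shared with related keratin genes and pseudogenes. FLG, the filaggrin gene, fell in Fadu (-2.79 ± 0.13) and did not pass in A375 (0.11 ± 0.07).

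**Figure D3:**
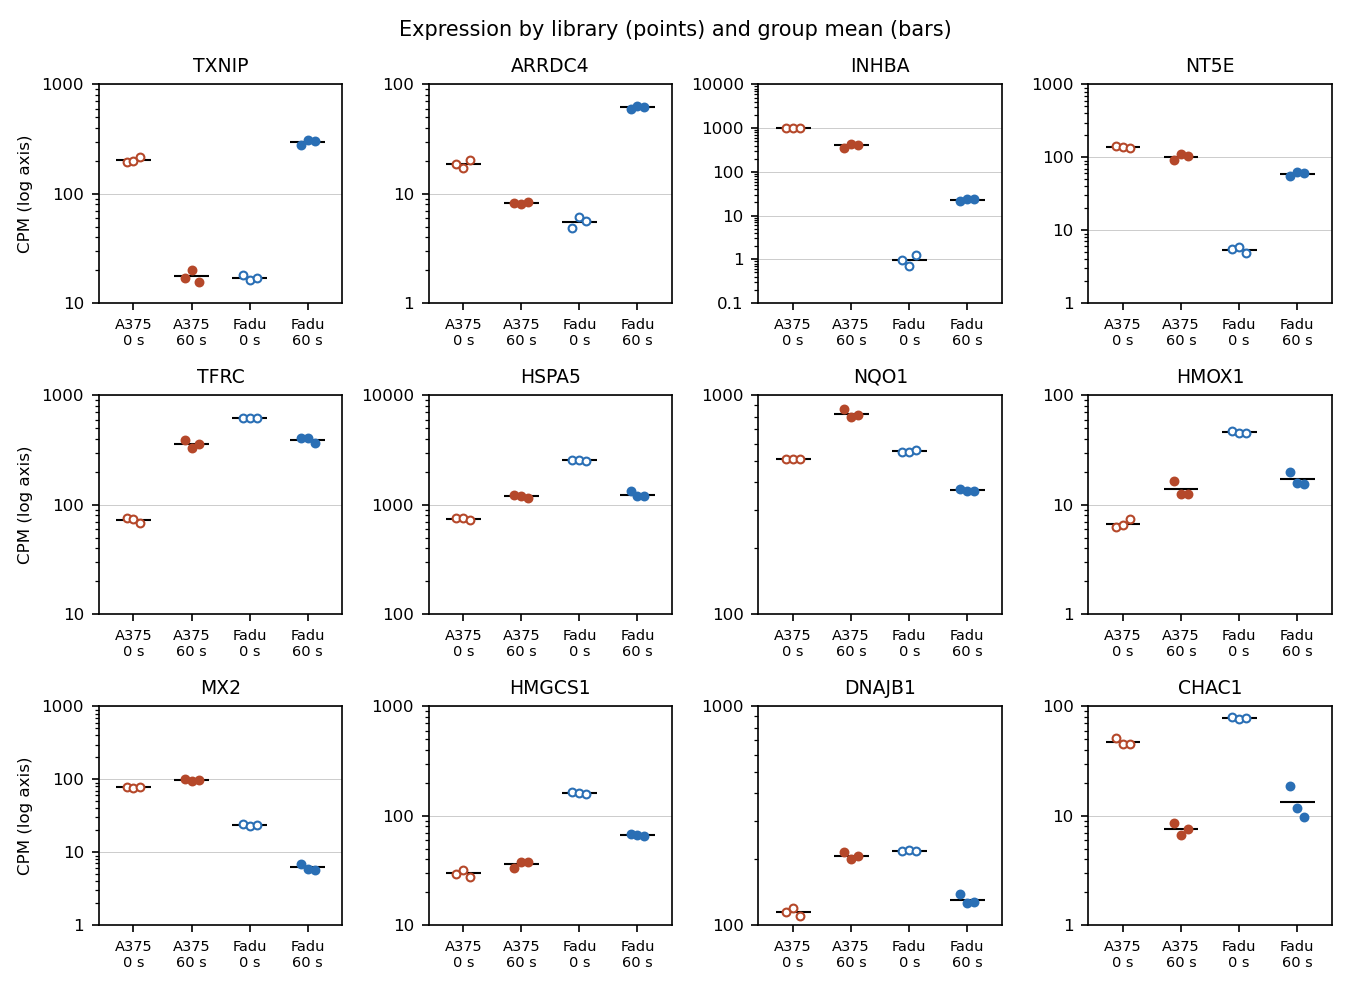
Expression in CPM (log axis) of 12 genes in untreated (0 s, open) and treated (60 s, filled) A375 (red) and Fadu (blue), 1 point per library and a bar at the mean of 3 libraries. TXNIP moves in opposite directions in the lines, TFRC and HSPA5 end at like levels in both, and CHAC1 falls in both.

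Among the stress programmes, the endoplasmic reticulum chaperones separated the lines most completely. All 20 tested of 21 had a higher response in A375, beside 27% of all genes, and 14 of them moved opposite ways. In A375 15 rose, 2 fell and 3 did not pass, and in Fadu 0 rose, 19 fell and 1 did not pass. The median difference was 0.94 ± 0.09, from 0.31 in A375 and -0.57 in Fadu. HSPA5, which encodes the chaperone BiP and whose stress element is printed above, was at 753, 749 and 728 CPM in untreated and 1229.6, 1192 and 1159 CPM in treated A375. Its Fadu levels were 2567, 2560.0 and 2533 CPM untreated and 1328, 1196 and 1196 CPM after plasma. The lines therefore began far apart and ended with overlapping libraries, with a difference of 1.73 ± 0.04 (adjusted p = 2.47e-28). HYOU1, a large chaperone of the same compartment, and CALR, the lectin chaperone calreticulin, followed (0.93 ± 0.04 and 0.89 ± 0.05). HYOU1 read 292, 291 and 292 CPM in untreated and 397, 385 and 380.4 CPM in treated A375, and 525, 508 and 508 CPM in untreated and 362, 359 and 356 CPM in treated Fadu. SEL1L, a scaffold of the pathway that removes misfolded proteins, fell in Fadu (-1.20 ± 0.04) and did not pass in A375 (0.03 ± 0.04). HERPUD1, of the same removal pathway, fell in both lines, -0.55 ± 0.12 in A375 and -2.48 ± 0.12 in Fadu. Of the 19 list genes with a RefSeq promoter, 7 (HSPA5, HSP90B1, CALR, CANX, PDIA6, CRELD2 and XBP1) hold the stress element, against 0.0916% of all genes.

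The ATF4 and CHOP arm of the stress response did not share that direction. Of 11 tested genes, 10 fell in A375 and 9 in Fadu, and the response was lower in A375 for 6, higher for 3 and did not pass for 2. The median difference was -0.52 ± 0.17 and moved to -0.10 on log2(TPM + 1). DDIT3, which encodes CHOP, went from 34.7, 27.9 and 28.3 to 7.16, 5.63 and 6.34 CPM in A375 and from 46.4, 45.9 and 46.8 to 17.01, 12.5 and 15.4 CPM in Fadu, a deeper fall in A375 (difference -0.63 ± 0.14). TRIB3, a pseudokinase that feeds back on ATF4, and CEBPG, a partner of ATF4, also fell more in A375 (-1.02 ± 0.10 and -1.08 ± 0.07). CHAC1, which degrades glutathione, went from 51.2, 45.5 and 45.5 to 8.59, 6.71 and 7.504 CPM in A375 and from 80.7, 76.8 and 77.96 to 18.8, 11.7 and 9.72 CPM in Fadu, and its difference, -0.09 ± 0.28, did not pass (adjusted p = 0.814). SESN2, a stress-induced leucine sensor, likewise did not pass (0.04 ± 0.10, adjusted p = 0.759). ATF5 rose in A375 (1.32 ± 0.12) and did not pass in Fadu (-0.11 ± 0.10), and PPP1R15A, the eIF2 phosphatase subunit GADD34, fell in A375 and rose in Fadu (-0.20 ± 0.05 and 0.47 ± 0.05). ATF4 itself fell in both lines, and its small difference of 0.19 ± 0.05 lost its call under 4 alternatives.

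Enzymes downstream of ATF4 fell more in A375. Of 15 serine, asparagine and one-carbon enzymes, 14 fell in A375 and 11 in Fadu, and 9 were lower in A375 while 0 were higher, with a median of -0.32 ± 0.10 that was -0.17 without the first untreated A375 library. Without the first untreated A375 library that median was -0.17. ASNS, asparagine synthetase, was at 22.5, 20.5 and 21.2 CPM in untreated and 2.88, 3.48 and 3.81 CPM in treated A375, and at 31.7, 33.3 and 31.3 CPM in untreated and 13.7, 13.4 and 13.7 CPM in treated Fadu (difference -1.40 ± 0.14). Both lines' groups stood apart, with the lower level in treated A375. PCK2, the mitochondrial PEP carboxykinase, followed (-0.94 ± 0.08), and PYCR1, of proline synthesis, fell in A375 and rose in Fadu (-0.78 ± 0.05 and 0.34 ± 0.05). Of 20 cytosolic aminoacyl-tRNA synthetases, 14 were lower in A375 and 1 higher, with a median of -0.27 ± 0.07. SARS1, for serine, fell in A375 (-0.83 ± 0.04) and did not pass in Fadu (-0.02 ± 0.04). ADM2, a secreted peptide induced with this pathway, was lower in A375 too (-1.96 ± 0.20), while DDIT4, an inhibitor of mTORC1, and GDF15, a stress-secreted cytokine, fell in both lines and more in Fadu (0.27 ± 0.05 and 0.48 ± 0.13).

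Cytosolic heat shock genes rose in A375 and were divided in Fadu. Of 27 genes, 24 rose and 2 fell in A375, and 14 rose and 8 fell in Fadu. The response was higher in A375 for 22, lower for 1 and did not pass for 4, with a median difference of 0.63 ± 0.13. DNAJB1, a co-chaperone and a sensitive target of HSF1, was at 114, 119.7 and 109.9 CPM in untreated and 216, 199.95 and 207 CPM in treated A375, and at 218, 221 and 218 CPM in untreated and 139, 126 and 127 CPM in treated Fadu. It rose to just below the untreated Fadu level in A375 and fell in Fadu, a difference of 1.60 ± 0.06. DNAJA1, another J-domain co-chaperone, rose in both lines (1.55 ± 0.04 and 0.14 ± 0.04), as did HSPA8, the constitutive HSP70 (difference 1.55 ± 0.08). The inducible HSP70 genes HSPA1A and HSPA1B rose by 2.65 ± 0.11 and 2.54 ± 0.08 in A375 and by 0.66 ± 0.08 and 0.16 ± 0.05 in Fadu, but the pair is nearly identical and the authors' counting could divide reads between them in either way. HSPB1, the small heat shock protein HSP27, fell in both lines and more in Fadu (difference 0.97 ± 0.06). Of 24 list genes with a RefSeq promoter, 12 hold the heat shock element, against 7.05% of all genes.

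Proteasome subunits rose in A375 as a group. Of 31, 30 rose and 0 fell in A375, and 16 rose and 4 fell in Fadu, with 21 higher and 4 lower in A375 and a median difference of 0.25 ± 0.05. PSMD1, a base subunit of the regulatory particle, rose in A375 and fell in Fadu (0.52 ± 0.04 and -0.23 ± 0.04), and PSMD11, a lid subunit, rose in A375 (0.60 ± 0.04) and did not pass in Fadu (-0.06 ± 0.03). The cytosolic chaperonin TRiC and prefoldin did not divide the lines: 12 of 14 subunits rose in A375 and 13 of 14 in Fadu, with 5 higher in A375, 4 lower and a median of 0.05, which changed sign under library size scaling.

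NRF2 targets mostly rose in A375 and fell in Fadu. Of 26 tested of 27, 24 were higher in A375 and 0 lower, and 13 moved opposite ways. In A375 16 rose and 3 fell, and in Fadu 2 rose and 21 fell, with medians of 0.27 and -0.72 and a median difference of 0.81 ± 0.14. NQO1, a quinone reductase, was at 513, 512 and 510.05 CPM in untreated and 868, 794 and 813 CPM in treated A375, and at 554, 551 and 564 CPM in untreated and 374, 365 and 367 CPM in treated Fadu. The lines began at like levels and ended apart, a difference of 1.28 ± 0.04 (adjusted p = 6.6e-26). HMOX1, heme oxygenase 1, had the largest difference of the list, 2.47 ± 0.14, from 6.24, 6.47 and 7.36 to 16.3, 12.7 and 12.4 CPM in A375 and from 47.4, 45.5 and 45.1 to 20.001, 15.95 and 15.6 CPM in Fadu. GCLC and GCLM, the subunits of the enzyme that begins glutathione synthesis, and TXNRD1, the cytosolic thioredoxin reductase, also moved opposite ways (1.61 ± 0.07, 1.85 ± 0.08 and 1.17 ± 0.04). SLC7A11, the cystine importer, which ATF4 also drives, was different: it fell in both lines, -1.03 ± 0.07 in A375 and -1.49 ± 0.08 in Fadu. Of 19 list genes with a RefSeq promoter, 5 hold the antioxidant response element, against 13.2% of all genes.

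Antioxidant enzymes as a wider list were less one-sided. Of 19, 13 were higher in A375 and 2 lower, with a median of 0.36 ± 0.14. SOD1, the cytosolic superoxide dismutase, rose in A375 and fell in Fadu (0.41 ± 0.04 and -0.18 ± 0.05). SOD2, its mitochondrial counterpart, fell in Fadu from 550.3, 565 and 567 to 194, 167 and 167 CPM and did not pass in A375 (-0.08 ± 0.05). Among 16 iron and ferroptosis genes, 11 were higher in A375 and 2 lower, with a median of 0.59 ± 0.05. They included both the importer TFRC, above, and FTL, the ferritin light chain, which stores iron and rose in A375 while it fell in Fadu (0.27 ± 0.03 and -0.77 ± 0.03). SLC30A1, the zinc exporter and a target of the metal-sensing factor MTF1, moved the same 2 ways (difference 1.57 ± 0.08). MT2A, a metallothionein of the same list, did not: it rose in Fadu (1.31 ± 0.13) and did not pass in A375 (0.25 ± 0.13). Its difference was -1.06 ± 0.18. Of the 4 tested genes of that list, 2 were higher in A375 and 1 lower.

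**Figure D4:**
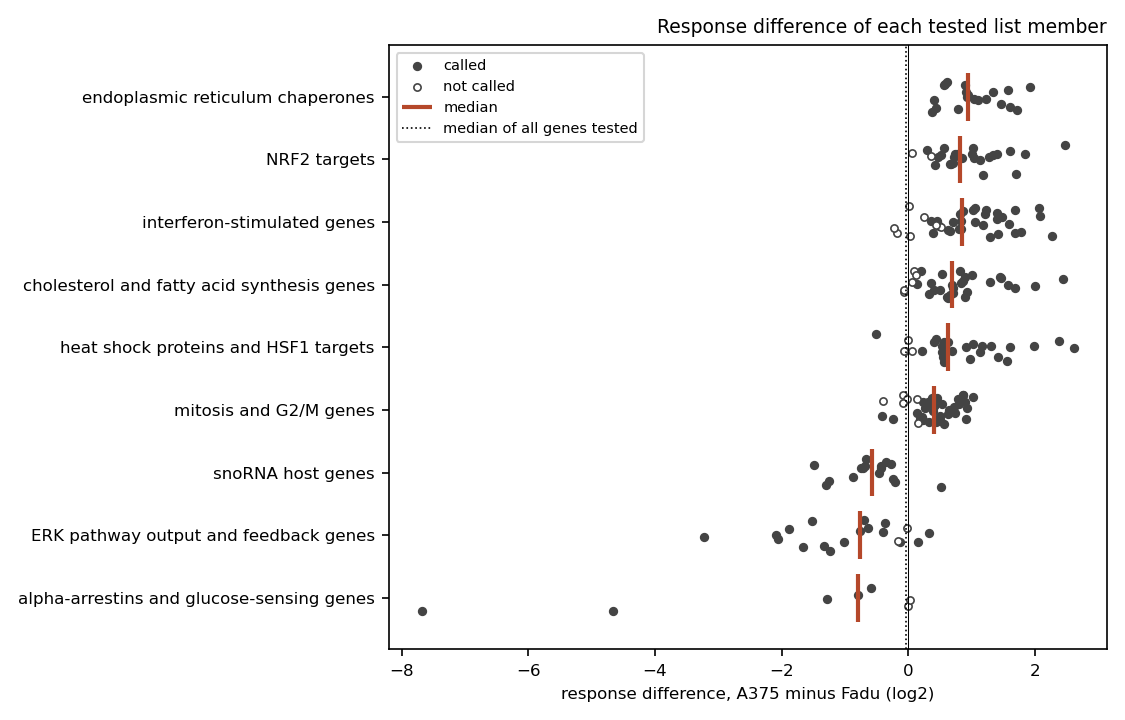
Response difference, A375 minus Fadu (log2, x axis), of each tested member of 9 gene lists, filled where the difference passed, with each list's median as a red bar and the median of all genes as a dotted line. All 20 endoplasmic reticulum chaperones lie above 0, and 15 of the 16 snoRNA host genes lie below it.

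Interferon-stimulated genes fell in Fadu and showed no common change in A375. Of 38 tested of 44, 36 fell, 0 rose and 2 did not pass in Fadu, while 8 rose, 13 fell and 17 did not pass in A375. The response was higher in A375 for 31 and lower for 0, with a median difference of 0.85 ± 0.12. MX2, an antiviral GTPase, rose from 77.8, 76.8 and 78.8 to 101, 94.01 and 96.4 CPM in A375 and fell from 24.2, 23.1 and 23.7 to 6.95, 5.82 and 5.71 CPM in Fadu (difference 2.27 ± 0.09). OAS3, a sensor of double-stranded RNA, and SAMD9, a restriction factor, were Fadu genes by level and followed (1.21 ± 0.05 and 1.41 ± 0.07). OAS3 read 77.2, 80.05 and 79.9 CPM in untreated and 105, 93.2 and 95.7 CPM in treated A375, and 655, 628 and 646 CPM in untreated and 359, 339.6 and 335 CPM in treated Fadu. IFIT3 rose in A375 and fell in Fadu too (difference 1.47 ± 0.08). Only 7 of the 38 genes moved opposite ways in this manner, and the examples named so far are among them. ISG15, the ubiquitin-like modifier, departed from the list: it did not pass in Fadu (-0.09 ± 0.04), and its difference, 0.39 ± 0.12, lost its call under 4 alternatives. Of 29 list genes with a RefSeq promoter, 20 hold the core element, against 8.41% of all genes.

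Genes of antigen presentation and immune recognition were less uniform. Of 19 class I presentation genes, 13 were higher in A375 and 2 lower, with a median of 0.56 ± 0.14, and 14 fell and 2 rose in Fadu. PSME1, an activator subunit of the proteasome, and ERAP1, a peptidase that trims peptides, fell in Fadu (-0.79 ± 0.05 and -0.89 ± 0.05) and did not pass in A375 (0.03 ± 0.05 and -0.01 ± 0.05). Reads of the HLA genes in this list could be shared between them. Of 18 checkpoint and natural killer cell ligands, 4 were higher in A375 and 6 lower, beside 27% and 25.9% of all genes. CD274, which encodes PD-L1, rose in Fadu from 15.3, 19.2 and 18.8 to 34.8, 38.5 and 39.98 CPM and did not pass in A375, where it stood at 3.303, 3.25 and 3.42 CPM untreated and 4.18, 3.31 and 3.91 CPM after plasma, with overlapping libraries (difference -0.90 ± 0.16). CD276, a related ligand, moved the other way, rising in A375 and falling in Fadu (0.26 ± 0.04 and -0.20 ± 0.04). Genes driven by NF-kB had no common direction either: 10 of 24 were higher in A375 and 9 lower, with differences from -2.71 (PTGS2) to 2.24. NFKBIA, the inhibitor that NF-kB induces, was among the higher ones (1.32 ± 0.08).

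Sterol and fatty acid synthesis genes fell in Fadu. Of 32 tested of 33, 27 fell and 2 rose in Fadu, whereas 11 rose, 10 fell and 11 did not pass in A375. The response was higher in A375 for 27 and lower for 0, with a median difference of 0.69 ± 0.12. HMGCS1, the synthase at the start of the mevalonate pathway, rose from 29.4, 32.2 and 27.6 to 33.2, 37.4 and 37.7 CPM in A375 and fell from 165, 163 and 158 to 68.1, 66.1 and 64.7 CPM in Fadu. IDI1, an isomerase of the same pathway, also moved opposite ways (1.45 ± 0.08).

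Mitotic genes mostly rose in A375 and fell in Fadu. Of 45, 24 rose and 6 fell in A375, and 4 rose and 33 fell in Fadu, with 37 higher in A375, 2 lower, 18 opposite and a median difference of 0.40 ± 0.09. MKI67, the proliferation marker, was at 669, 708 and 684 CPM in untreated and 818, 786 and 840.1 CPM in treated A375, and at 909, 869.9 and 911 CPM in untreated and 605, 599 and 619 CPM in treated Fadu. KIF11, a spindle motor, moved the same 2 ways (0.92 ± 0.05), and CENPF, a kinetochore protein, fell in Fadu (-1.04 ± 0.03) and did not pass in A375 (-0.03 ± 0.03). TOP2A, the mitotic topoisomerase, fell in both lines and more in Fadu (0.37 ± 0.04). DNA replication genes rose more widely: 35 of 39 rose in A375 and 14 in Fadu, with 24 higher and 3 lower in A375 and a median of 0.42 ± 0.11. PCNA, the sliding clamp, went from 119, 120.2 and 114 to 247, 223 and 239 CPM in A375 and from 205, 206 and 209 to 189, 190.1 and 179 CPM in Fadu. Double-strand break and crosslink repair genes leaned the same way more weakly, with 22 of 43 higher, 4 lower and a median of 0.20.

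MDM2, a ubiquitin ligase, rose from 89.4, 84.5 and 84.2 to 145, 131 and 130.3 CPM in A375 and fell from 93.5, 94.6 and 94.1 to 69.7, 78.96 and 73.1 CPM in Fadu (difference 0.997 ± 0.07). PLK2, a kinase, did likewise (1.62 ± 0.09). CDKN1A, the cell cycle inhibitor p21, did not follow: it rose in A375 from 83.2, 76.7 and 79.98 to 175, 139 and 130.3 CPM and in Fadu from 43.98, 42.5 and 43.3 to 89.3, 90.6 and 93.2 CPM. Its difference, -0.19 ± 0.12, did not pass (adjusted p = 0.211), and without the first treated A375 library, the highest of the 3, it was -0.32 and passed. PMAIP1, the death gene NOXA, fell in A375 (-0.86 ± 0.06) and did not pass in Fadu (0.03 ± 0.06). Of 29 BCL2 family, caspase and death receptor genes, 13 were higher in A375 and 5 lower, with a median of 0.26 ± 0.04.

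Hypoxia and glycolysis genes mostly fell in both lines, with the members divided between them. Of 29, 18 fell and 7 rose in A375, and 23 fell and 2 rose in Fadu. The response was higher in A375 for 14 and lower for 9, beside 27% and 25.9% of all genes, with a median difference of 0.15 ± 0.11. The hypoxia markers named next lay below 0. CA9, carbonic anhydrase 9, fell from 20.5, 25.2 and 23.8 to 0.616, 0.469 and 0.426 CPM in A375 and from 3.31, 2.71 and 2.98 to 1.24, 0.788 and 0.988 CPM in Fadu, a difference of -3.95 ± 0.30. BNIP3, a mitophagy receptor, and VEGFA, the angiogenic factor, fell in A375 (-1.08 ± 0.04 and -0.93 ± 0.04), and in Fadu BNIP3 did not pass (-0.03 ± 0.05) and VEGFA fell (-0.12 ± 0.04). MIR210HG, the host transcript of miR-210, fell in A375 (-3.57 ± 0.19) and did not pass in Fadu (0.31 ± 0.15), with the same doubt over strand as MIR100HG. Glycolysis gave both signs: PKM, pyruvate kinase, rose in A375 and fell in Fadu (0.41 ± 0.03 and -0.28 ± 0.03), and ENO2, the neuronal enolase, fell in A375 and rose in Fadu (-0.85 ± 0.05 and 0.35 ± 0.05).

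Host genes of small nucleolar RNAs, whose spliced transcripts are degraded during translation, rose in Fadu. Of 16, 14 rose and 0 fell in Fadu, and 5 rose and 8 fell in A375, so that 15 were lower and 1 higher in A375, with a median difference of -0.57 ± 0.12. GAS5 read 357, 321 and 347 CPM in untreated and 303, 321 and 318 CPM in treated A375, and 222, 231 and 222 CPM in untreated and 321, 332 and 339.9 CPM in treated Fadu, with the groups well apart in Fadu and only just apart in A375, where 1 untreated and 1 treated library nearly met. SNHG32 and SNHG7 moved opposite ways in the same sense (-1.49 ± 0.11 and -0.87 ± 0.07). Cytosolic ribosomal protein genes shifted less: 39 of 62 were lower in A375 and 3 higher, with 49 rising in Fadu and 13 in A375 and a median of -0.18 ± 0.09. These genes are short, and after removal of the length trend the median was -0.05 for them and -0.41 for the snoRNA hosts. RPL4, of the large subunit, fell in A375 and rose in Fadu (-0.19 ± 0.03 and 0.22 ± 0.03). Ribosomal protein genes have many processed pseudogenes that could share their reads.

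**Figure D5:**
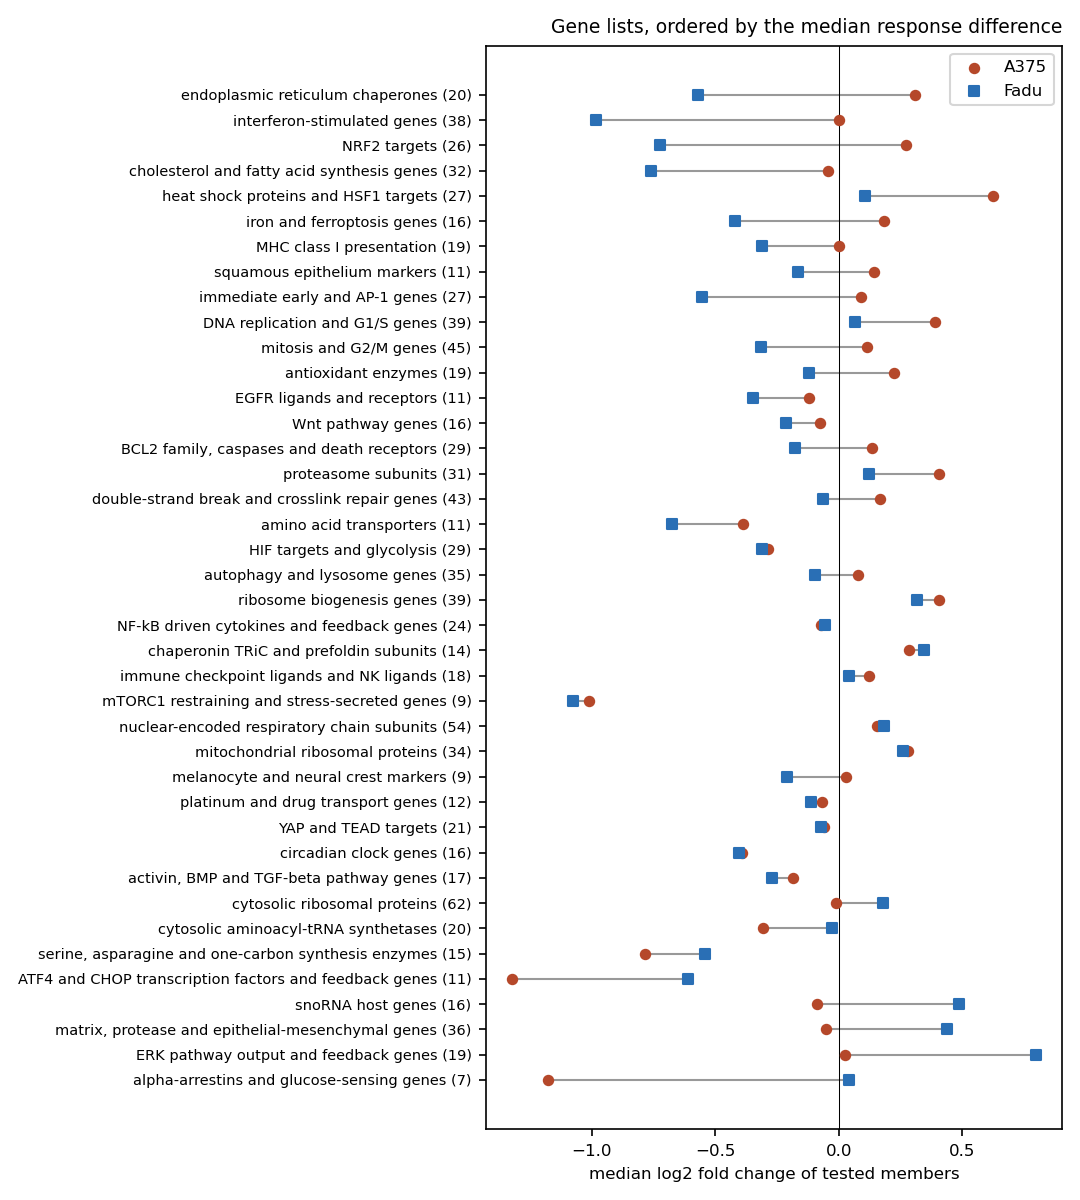
Median log2 fold change of the tested members of the gene lists shown (x axis) in A375 (red circles) and Fadu (blue squares), joined by a line, with the number of tested members in brackets and lists ordered by the median response difference. The endoplasmic reticulum chaperones stand at the top (0.31 against -0.57), and the alpha-arrestins at the bottom (-1.18 against 0.04).

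Several programmes had median differences near 0, and these medians changed sign under 1 or more alternatives. Nuclear-encoded respiratory chain subunits had a median difference of 0.00, with 34 of 54 rising in A375 and 30 in Fadu. Mitochondrial ribosomal proteins also had a median of 0.00, with 26 of 34 rising in A375 and 28 in Fadu. Ribosome biogenesis genes rose in both lines, 35 of 39 in A375 and 30 in Fadu, with a median difference of 0.06. Genes that restrain mTORC1 or are secreted under stress fell in both, 8 of 9 in A375 and 9 of 9 in Fadu. Of the 54 respiratory chain genes, 11 were higher and 14 lower in A375, near or below the 27% and 25.9% of all genes. A panel of 30 stress and immune genes, chosen with earlier results of these data known, had 28 tested members. Of these, 14 were higher in A375 and 11 lower, beside the same 27% and 25.9%, and 3 did not pass (CHAC1, SESN2 and CDKN1A).

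Of 25 squamous epithelium genes, 11 were tested in both lines. In Fadu 4 of the 11 rose, 6 fell and 1 did not pass, and the difference in response was higher in A375 for 6 and lower for 3, with a median of 0.45 ± 0.17. DSP, desmoplakin, and DSC3, desmocollin 3, both of desmosomes, fell in Fadu from 1825, 1770.2 and 1809 to 887, 816 and 792 CPM and from 354, 357 and 357 to 163, 149 and 132 CPM. Both also fell in A375, where they were low (-0.38 ± 0.04 and -0.23 ± 0.07).

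The remaining cell lines of the series, Cal27 and Hth83, were examined for the genes with opposite responses in a fit of all 24 libraries. Over all genes tested, 21.9% rose and 24% fell in Cal27, and 26.6% rose and 24.8% fell in Hth83. Of the 1268 genes that rose in A375 and fell in Fadu, 498 rose and 319 fell in Cal27, and 654 rose and 257 fell in Hth83. Of the 1012 genes that fell in A375 and rose in Fadu, 283 fell and 224 rose in Cal27, and 415 fell and 175 rose in Hth83. The last Cal27 counts are near the shares over all genes. Cal27 and Hth83 shared with A375 the medium DMEM, so line and medium cannot be told apart here either. TXNIP fell slightly in Cal27 (-0.30 ± 0.06) and rose in Hth83 (1.496 ± 0.13), against -3.54 in A375 and 4.14 in Fadu.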

How the data were processed

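Libraries were prepared from Trizol-extracted RNA with a SMARTER mRNA-Seq kit, per the labels' protocols. Per the submitters' processing notes, HISAT2 and the build GRCh38 were used. Not given in the sources used here are the HISAT2 version, how reads were counted and with which annotation, whether strand was used, and what lengths TPM rests on. The authors deposited a whole-number count and a TPM value for each of 61533 genes in each library. All 37 mitochondrial genes have counts of 0. Gene symbols came from a symbol table for 61369 identifiers and from GENCODE for 149, and 15 have none.

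Counts of 12 libraries were tested with edgeR 4.0.16 in R 4.3.3 (TMM scaling, a filter at 10 counts within each line with a gene kept only if it passed in both lines, quasi-likelihood fit with robust dispersion, Benjamini-Hochberg adjustment at 0.05). The response difference is the interaction of line and plasma. CPM values are counts-per-million on the tested genes after TMM. A list's error is the square root of the variances between libraries of its median log2 level, summed over the 4 groups. It is thus the spread of a response difference taken from 1 library per group, not a standard error. The length trend was a local regression over 0.3 of the genes (statsmodels). Replicates of a group varied by 4.87% (A375) and 4.89% (Fadu) beyond counting error, and no pair agreed within sampling noise. On simulated counts of 16335 genes with this contrast, 100 differences of each size were planted. The test recovered 12% of 1.2-fold and 80% of 2-fold differences, and 3.16% of its calls were false. So few changed genes make the adjusted threshold stricter than in these data, where 52.9% passed. Alternatives used DESeq2 1.42.0, limma 3.58.1 on log2(TPM + 1) and log2(TPM + 0.1), other scalings and filters, and each library left out. Same-numbered libraries showed little shared deviation (correlations -0.04 to 0.03 over all pairings). This cannot exclude pairing, and the main fit did not pair them.

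The comparison, all gene lists and the panel were chosen with earlier results of these data known. Named genes had an adjusted p under 0.05 and at least 5 CPM in the higher group of each line, and were the 8 largest differences each way, the 8 largest opposite responses each way without overlap, the 3 smallest p in each list, and a panel of 30 genes whatever its p. HERPUD1, GCLM, SPRY4, HSPA8, HSPB1, TOP2A, IFIT3 and HSP90B1 were chosen after their values were seen. Some list members and lists are not reported here.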

Additional observations from a re-analysis of the deposited data

Results flagged for a closer look

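The responses of the 2 lines differed by a direct test of the difference, and in 2280 genes they had opposite signs. Among genes that rose in A375 and fell in Fadu, the largest differences in log2 fold change were 3.41 for ADGRF1, 3.22 for NGFR, 3.08 for C3, 3.06 for WNT9A, 3.04 for FOSB, 2.96 for TFRC, 2.85 for CCN2 and 2.71 for KRT14. Among genes that fell in A375 and rose in Fadu, they were -7.68 for TXNIP, -5.90 for INHBA, -5.16 for IL24, -4.66 for ARRDC4, -3.90 for NT5E, -3.59 for ANGPTL4, -3.42 for MIR100HG and -3.33 for SPRED3. These genes were chosen because they passed edgeR's quasi-likelihood test and their treated and untreated libraries did not overlap in either line. Neither fact is therefore further support. Over all genes tested there was no overlap in 60.5% in A375 and in 61.1% in Fadu. Of the 2280 genes with opposite signs, 2090 had no overlap in both lines. With 3 libraries per group, single libraries that stood apart within a group were not tested for.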

How the results depend on the processing

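The counts of genes with a response difference, with a higher or lower response in A375, with opposite responses, and with a response in A375 or Fadu were each recomputed under 25 alternatives, and 149 of these 150 values lay within 1.5 times the main count. The exception was the count of genes with opposite responses by limma on log2(TPM + 1) without a filter on low values, 1402. A fit with a replicate block gave 8796 genes with a response difference, and the block changed no call among the genes followed except that of CDKN1A, which passed. With each library left out in turn, the count with a response difference ranged from 8289 to 8644, that with opposite responses from 2013 to 2241, that of A375 from 7957 to 8993 and that of Fadu from 8662 to 9483. Of 114 genes followed, 0 reversed and 105 kept their side of the threshold under every alternative run. The call was lost somewhere for 8, among them SLC7A11 (limma on log2(TPM + 1) without a filter, 0.36), GDF15 (fit of all 24 libraries, 0.49), DDIT4 (0.19), ATF3 (-0.18), ISG15, ATF4 and CCND1, and CDKN1A gained it 3 times. Of the list medians recomputed, 725 moved by less than their spread between libraries, combined over the 4 groups, and 57 by more. With library size alone, the median over all genes also moved, from -0.03 to -0.17, and list medians relative to it hardly changed. The causes of other moves were not tested. In the simulation most 1.2-fold differences were missed, but with few genes changed there the adjusted threshold was stricter than in these data. Smaller differences passed here, among them 0.18 on the log2 scale for CCT4, a chaperonin subunit.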

Other observations

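Other programmes gave smaller or mixed differences. Amino acid transporters fell in both lines (9 of 11 in A375 and 8 of 11 in Fadu), with 6 responses higher in A375, 2 lower and a median difference of 0.16 ± 0.14 that was 0.01 under scaling to library size alone. Circadian clock genes also fell in both, 11 of 16 in A375 and 9 of 16 in Fadu, with 4 higher and 6 lower in A375, beside 27% higher and 25.9% lower over all genes. Autophagy and lysosome genes included 16 of 35 higher in A375 and 5 lower, with a median of 0.13 ± 0.10 that changed sign under scaling to library size. Wnt pathway genes were divided, 5 of 16 higher and 3 lower, near the same 27% and 25.9%. Their median of 0.27 ± 0.18 was 0.11 without the second treated Fadu library.

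Activin, BMP and TGF-beta pathway genes, the setting of INHBA and FST, had no clear common direction. In A375 4 of 17 were higher and 6 lower, beside 27% and 25.9% of all genes. Their median of -0.13 ± 0.14 was -0.03 without the first treated A375 library. SMAD3, a transducer of activin and TGF-beta signals, fell in A375 (-0.24 ± 0.03) and rose in Fadu (0.13 ± 0.03), with no overlap between the groups of either line.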
